A study of Homo sapiens with 8 samples.

Results

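Oxidative phosphorylation subunits are the proteins of the respiratory chain complexes I to IV and of the ATP synthase, complex V, in the inner mitochondrial membrane. They were taken from the deposited tables by name, as entries named for mitochondrially encoded ND, CO, ATP and CYB genes, for NDUF subunits of complex I, SDH subunits of complex II, UQCR subunits of complex III, COX subunits of complex IV and ATP5 subunits of complex V. Of 186 entries with such names, 90 pseudogenes were left out, and of the 96 genes that remained, 90 had a mean of at least 50 normalized counts in vector cells in the authors' deposited table for SLNCR1. The members were thus 90 of 56638 entries, 13 encoded in mitochondrial DNA and 77 in the nucleus. MT-ATP6 and MT-ATP8 end in a letter and digit like the pseudogenes but are the genes themselves and were kept, and read to the letter that ending would leave 88 members. The least abundant members were NDUFV2 at 53.37, COX7B2 at 56.98 and NDUFC2 at 95.27. Below the threshold were COX6B2 at 23.02, COX7A1 at 14.32, ATP5J2-PTCD1 at 1.78, ATP5L2 at 1.70, COX8C at 0.43 and COX6A2 at 0.0, and these 6 are not described further.

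The libraries came from A375, a human malignant melanoma line, in 4 groups of 2. Cells were transfected with pcDNA3.1(-) plasmid carrying full-length SLNCR1, a long noncoding RNA (SLNCR1), SLNCR1 delta conserved, which lacks its conserved region (delta-conserved), SLNCR1 conserved, the conserved region alone (conserved region), or no insert (vector). All groups received Lipofectamine 2000 and plasmid 24 h after seeding, grew in DMEM with 10% FBS, and were harvested 48 h after transfection. The comparisons ask which expression differences follow the RNA and which follow its parts. There is 1 cell line, and the vector group carries no unrelated RNA of like length.

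Complexes I, III and IV pump protons as electrons pass from NADH or succinate to oxygen, and the ATP synthase uses the gradient to make ATP. Mitochondrial DNA encodes core subunits of complexes I, III, IV and V, while every subunit of complex II and all other subunits are encoded in the nucleus and imported. The mitochondrial messages are cut from long transcripts of both strands of a small circular genome and, other than that of MT-ND6, mostly carry short poly(A) tails. The nuclear genes are switched on by factors such as NRF1, the ETS protein GABPA and YY1, helped by the coactivator PPARGC1A.

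Whole reads of single libraries were recovered from the group means of the deposited tables, and each group's library with more reads is named a and its partner b, since the values do not show which replicate is which. Total reads were 10097194 and 9090649 in the SLNCR1 libraries, 9187241 and 8222868 in delta-conserved, 11340264 and 10280300 in the conserved region, against 12015394 and 11321294 in vector. No entry is named SLNCR1 or LINC00673, the RefSeq gene with that synonym. LINC00511, its neighbour on chromosome 17, had 859 and 880 normalized counts with SLNCR1, 1147 and 864 with delta-conserved, 1045 and 1133 with the conserved region, against 623 and 617 with vector. Each construct group exceeded vector by limma, a linear model with moderated variances and Benjamini-Hochberg adjustment over 16058 genes (log2 differences of 0.49, 0.68 and 0.81, adjusted p = 0.00441, 0.000297 and 0.00279). Whether LINC00511 holds reads of the plasmid RNA was not tested, so this is no full check of the labels. Of the melanoma markers SOX10 had 2919 to 3678 and MITF 536 to 786 normalized counts over the 8 libraries, while TYR and DCT stayed at or below 5.02. SOX10 was higher with SLNCR1 and delta-conserved than with vector (0.22 and 0.26), and MITF was higher with the conserved region than with delta-conserved (0.39) and lower with SLNCR1 than with the conserved region (-0.36). Their part in the results below was not tested. Summed markers of other cell types ran from 645 to 774 for keratinocytes, 213 to 391 for fibroblasts, 21.99 to 32.04 for endothelium and 58.2 to 82.2 for leukocytes. DSG3 and PECAM1 were at 0 throughout. Most of the keratinocyte sum was KRT10 (532 to 683), while KRT14 had 73.4 to 107.8 and KRT5 and KRT1 stayed at or below 7.94. Most of the fibroblast sum was COL1A1 (138 to 274). Nothing in the labels ties the paired libraries to separate cultures, and p-values then reflect only library-to-library spread, which may be technical. In bulk RNA, fewer cells that express a gene and less RNA per cell cannot be told apart.

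The mitochondrial genes are packed so tightly that some of them share bases, which bears on how reads could be assigned to them. Mitochondrial sequences are from GENCODE release 29 transcripts, in GRCh38 coordinates, while the deposited reads were placed on hg19. The end of MT-ATP8 overlaps the start of MT-ATP6 by 46 bases, 22.2% of the 207 bases of MT-ATP8, and the end of MT-ND4L overlaps the start of MT-ND4 by 7 bases. The shared bases are in capitals in the heavy-strand messages, at chrM:8515-8584 and chrM:10748-10778 on the + strand.
MT-ATP8 and MT-ATP6: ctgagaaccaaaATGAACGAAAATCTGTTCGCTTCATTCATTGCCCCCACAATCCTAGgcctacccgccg
MT-ND4L and MT-ND4: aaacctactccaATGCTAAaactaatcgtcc

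Copies of mitochondrial genes also lie in nuclear chromosomes, and 1 with reads is MTATP6P1 on chromosome 1. It is as long as MT-ATP6 (681 bases) and identical to it at 671 positions, or 98.5%, with a longest run of 141 identical bases. The stretch with most differences, bases 116 to 175 of both, is shown to let the 2 be told apart, with the 3 differing bases in capitals. It lies at chrM:8642-8701 for MT-ATP6 and at chr1:633811-633870 for MTATP6P1, both on the + strand of GRCh38.
MT-ATP6: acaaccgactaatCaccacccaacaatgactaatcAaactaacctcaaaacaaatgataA
MTATP6P1: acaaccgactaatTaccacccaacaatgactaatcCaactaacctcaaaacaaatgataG

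Of the 77 nuclear members, 64 matched a promoter in the RefSeq table of GRCh38.p14. In the 250 bases before the start, on both strands, the palindromic NRF1 motif was found in 3 (4.69%, against 1.13% of all 27305 promoters), the ETS motif CCGGAAG in 16 (25%, against 8.82%) and the YY1 motif AAGATGGC in 1 (1.56%, against 1.37%). Any of them was found in 18 members (28.1%, against 10.8% of all promoters). The end of the ETS motif and the start of the YY1 motif can share the letters AAG. A match is a description of sequence and shows no binding. Members with 2 kinds of motif were SDHD, a membrane anchor of complex II, and ATP5J, a stalk subunit of the ATP synthase whose exons overlap those of GABPA on the genome. The 130 bases before their starts are shown with the motifs in capitals, at chr11:112086743-112086872 on the + strand and chr21:25735055-25735184 on the - strand, read in the direction of the gene. In SDHD the first motif is that of NRF1 and the second is the ETS motif on the opposite strand, and in ATP5J the first is that of YY1 and the second the ETS motif.
SDHD: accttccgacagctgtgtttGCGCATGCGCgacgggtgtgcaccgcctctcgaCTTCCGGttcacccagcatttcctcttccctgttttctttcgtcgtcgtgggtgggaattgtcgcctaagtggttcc
ATP5J: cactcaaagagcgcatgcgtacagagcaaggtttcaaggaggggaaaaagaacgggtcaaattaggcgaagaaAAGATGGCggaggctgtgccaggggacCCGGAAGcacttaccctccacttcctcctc

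The mitochondrially encoded genes had almost the same number of reads in all 8 libraries, whatever the construct and the depth. MT-ND4, a proton-pumping subunit of complex I, had 2423 and 2422 reads with SLNCR1, 2424 and 2406 with delta-conserved, 2438 and 2431 with the conserved region, against 2430 and 2435 with vector. The highest library exceeded the lowest by 1.33% for MT-ND4, while the totals differed by 46.1%. MT-CO3, a core subunit of cytochrome c oxidase, had 1143 and 1135 reads with SLNCR1, 1138 and 1127 with delta-conserved, 1142 and 1135 with the conserved region, against 1133 and 1145 with vector. MT-CO1, the catalytic subunit of the same complex, had 1777 to 1817 reads, and MT-CO2, which takes electrons from cytochrome c, 1005 to 1065. MT-CYB, the only mitochondrially encoded subunit of complex III, had 1850 to 1949. For MT-CO3 the groups overlapped in reads, while for MT-ND4 the SLNCR1 and delta-conserved libraries lay a few reads below both vector libraries.

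Of the other complex I subunits, MT-ND5 had the most reads, 2993 and 2828 with SLNCR1, 2904 and 2835 with delta-conserved, 3006 and 2961 with the conserved region, against 2978 and 2957 with vector. MT-ND1 had 1139 to 1232 reads, MT-ND2 951 to 1004, MT-ND3 465 to 498 and MT-ND4L 399 to 417. MT-ND6, the one message from the light strand, had 692 to 732, and since the libraries do not mark strand its reads and those antisense to it cannot be told apart. In complex V, MT-ATP6, part of the proton channel, had 648 to 664 reads and MT-ATP8 156 to 168. Reads that fall on their shared bases could be counted for either gene or for none, and the sources used here do not give the counting settings.

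Summed over the 13 genes, reads numbered 15979 and 15696 with SLNCR1, 15800 and 15461 with delta-conserved, 16066 and 15925 with the conserved region, against 15951 and 15996 with vector, a range of 3.91%. As a share of all reads this was 0.158% and 0.173% with SLNCR1, 0.172% and 0.188% with delta-conserved, 0.142% and 0.155% with the conserved region, against 0.133% and 0.141% with vector. The exact 95% binomial intervals, which cover counting error only, were 0.185% to 0.191% for delta-conserved b, the highest library, and 0.131% to 0.135% for vector a, the lowest, and do not overlap. The intervals of the 2 libraries of a group did not overlap either, as for vector b at 0.139% to 0.143%. The shallower library held the larger share in all 4 groups. With 2 libraries against 2, an exact permutation test cannot give a two-sided p below 0.333, so no test of the share is given.

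**Figure D1:**
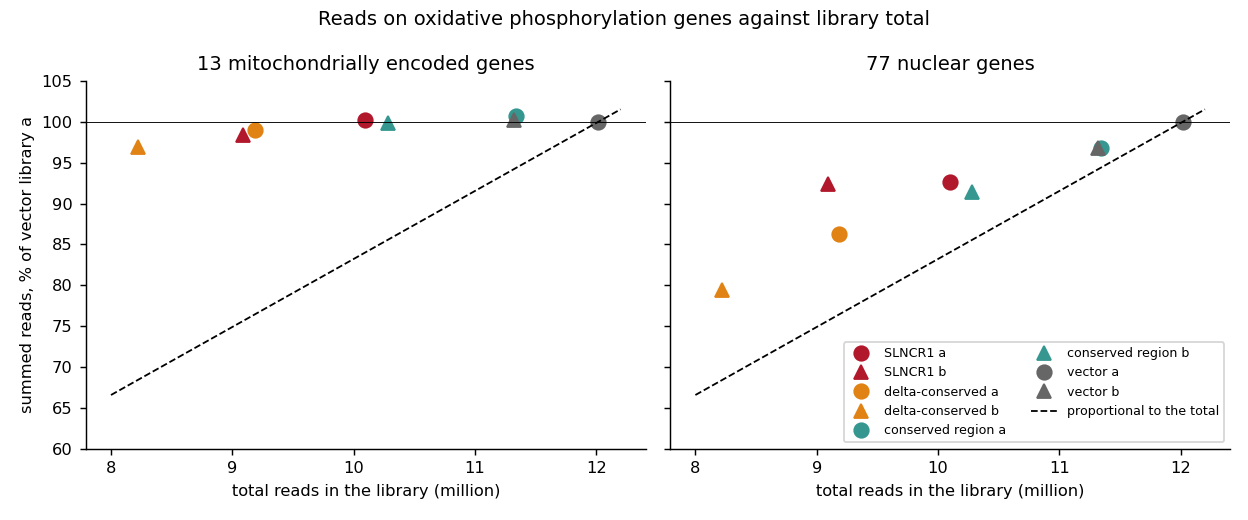
Summed reads on the 13 mitochondrially encoded genes (left) and the 77 nuclear genes (right) in each library, as a percent of vector library a, against the total reads of the library; circles are libraries a, triangles libraries b, and the dashed line is proportional to the total. Mitochondrial reads ran from 15461 to 16066 over totals of 8222868 to 12015394 reads, while nuclear reads ran from 41991 to 52902.

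The spread of these reads was also smaller than sampling would give. The variance over the 8 libraries divided by the mean, which is 1 where reads are drawn independently at 1 rate, was below 1 for 12 of the 13 genes, with a median of 0.269. It was lowest for MT-CO3 at 0.0313 and highest for MT-ND5 at 1.65, the 1 gene above 1. Among all 12476 genes with a mean of at least 50 reads, 87 (0.697%) were below 1, and the median was 11.96. Among the 77 nuclear members 3 were below 1 and the median was 3.30. MTATP6P1, the nuclear copy shown above, had 150 and 158 reads with SLNCR1, 154 and 156 with delta-conserved, 149 and 156 with the conserved region, against 152 and 151 with vector, a ratio of 0.0685. The mitochondrial ribosomal RNA entries MT-RNR1, at 951 to 1100 reads, and MT-RNR2, at 2269 to 2525, had ratios of 1.70 and 2.64.

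After division by size factors, which scale each library by the median ratio over all genes, the mitochondrially encoded genes stood higher with SLNCR1 and with delta-conserved than with vector. MT-ND4 had 2422 and 2655 normalized counts with SLNCR1, 2678 and 3017 with delta-conserved, 2157 and 2414 with the conserved region, against 1954 and 2148 with vector. The SLNCR1 and delta-conserved libraries were above both vector libraries, as was each conserved-region library. MT-CO1 averaged 1894 ± 111 with SLNCR1, 2111 ± 166 with delta-conserved, 1695 ± 136 with the conserved region and 1526 ± 103 with vector (SD, n = 2 each). In every group all 13 genes had more normalized counts in library b than in library a. The median difference of b from a was 0.12 on the log2 scale in SLNCR1, 0.15 in delta-conserved, 0.16 in the conserved region and 0.14 in vector.

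**Figure D2:**
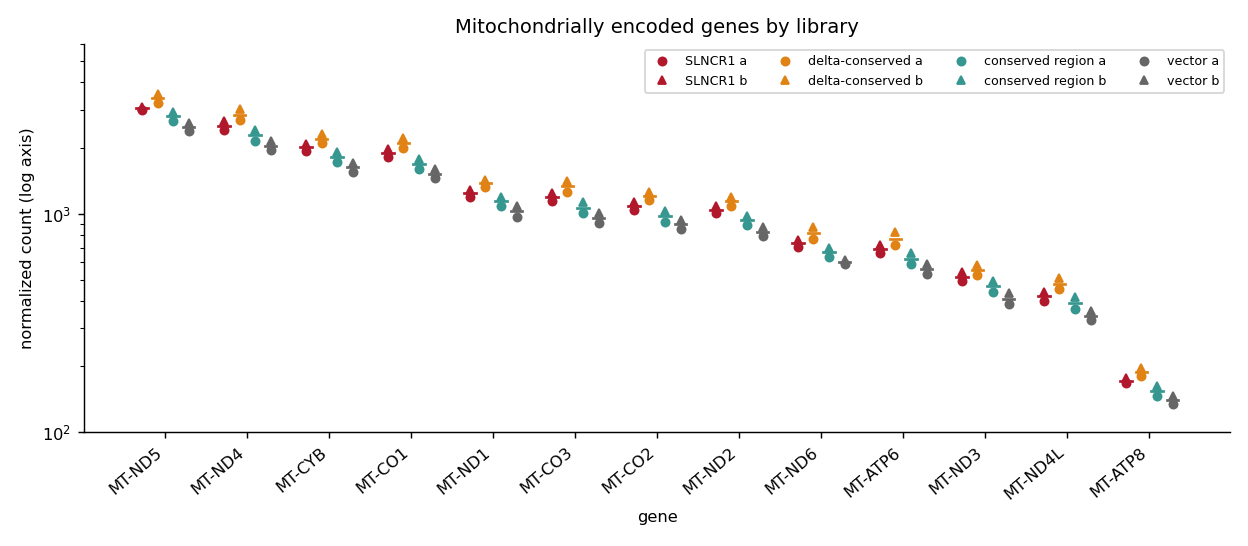
Normalized counts (log axis) of the 13 mitochondrially encoded genes in each library, with genes ordered by their vector mean; circles are libraries a, triangles libraries b and short lines group means. Delta-conserved is highest and vector lowest for each gene, and b lies above a in every group.

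With SLNCR1, 11 of the 13 passed an adjusted p of 0.05 by limma, all higher than vector, where 3.94% of all genes tested were called higher and 7.41% lower. The median log2 difference was 0.30, between 0.28 for MT-ND1 and 0.33 for MT-ND3, beside a median of -0.00 over all genes. MT-ND2 differed by 0.33 ± 0.08 (SE, limma adjusted p = 0.0137), MT-CYB by 0.31 ± 0.08 (adjusted p = 0.0195) and MT-CO1 by 0.31 ± 0.08 (adjusted p = 0.0206). MT-ND4L at 0.29 and MT-ATP8 at 0.29 did not pass (limma adjusted p = 0.0582 and 0.121). All 13 had both SLNCR1 libraries above both vector libraries, as had 27.2% of all genes tested. In the authors' deposited table none of the 13 passed, nor any of the 90 members, where 0.0388% of genes were called higher and 0.844% lower. There 37 members had an unadjusted p under 0.05. Here and below, the share of all genes under that unadjusted cutoff was not counted. In that table MT-ND4 had an adjusted p of 0.153 at a log2 fold change of 0.31.

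With delta-conserved, all 13 rose by limma, where 5.19% of genes tested were called higher and 5.26% lower, with a median log2 difference of 0.44. The differences ran from 0.42 ± 0.12 (SE) for MT-ATP8 (limma adjusted p = 0.0341) to 0.49 ± 0.10 for MT-ND4L (adjusted p = 0.00457). MT-CO1 rose by 0.47 ± 0.08 (limma adjusted p = 0.00167) and MT-ND4 by 0.47 ± 0.08 (adjusted p = 0.0017). All 13 had both delta-conserved libraries above both vector libraries, as had 27.7% of all genes tested. Of the 13, 12 rose in the authors' deposited table, where 1.11% of genes with a p-value were called higher and 1.14% lower. There MT-CO2 had the lowest adjusted p, 0.000899, at a fold change of 1.35, and MT-ATP8 did not pass.

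With the conserved region alone none of the 13 passed by limma, where 0.00623% of genes were called higher and 0% lower, and 2 had an unadjusted p under 0.05. Their median log2 difference was 0.16, between 0.12 for MT-CO2 and 0.19 for MT-ND3, and 10 of the 13 had both libraries above both vector libraries, as had 25.1% of all genes tested. In the authors' deposited table none of the 90 members passed (0.0175% of genes called higher, 0% lower), and 0 had an unadjusted p under 0.05.

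The size of these differences followed the size factors. The mean log2 size factor of vector exceeded that of SLNCR1 by 0.31, that of delta-conserved by 0.48 and that of the conserved region by 0.15, beside the mitochondrial medians of 0.30, 0.44 and 0.16. On the reads before scaling, the median log2 differences were -0.01, -0.04 and 0.00, where the median over all genes was -0.31, -0.48 and -0.13. In a fit without scaling, chosen after seeing the data, none of the 13 passed in any of the 3 comparisons. Within groups the same held, with library b expected to exceed a by 0.13, 0.18, 0.17 and 0.13 from the size factors of SLNCR1, delta-conserved, conserved region and vector if reads were equal. What sets a near-constant number of reads was not tested, and depth and construct cannot be told apart here, since both vector libraries had more reads than any SLNCR1 or delta-conserved library.

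Between constructs, the mitochondrially encoded genes were lower with the conserved region than with delta-conserved. By limma 10 of 13 fell, where 1.11% of all genes tested were called lower and 5.79% higher, with a median log2 difference of -0.30. MT-CO1 fell by 0.32 ± 0.08 (SE, limma adjusted p = 0.02), while MT-ND3, MT-ND4L and MT-ATP8 did not pass. On the unscaled reads the median was 0.03 and none passed. SLNCR1 and delta-conserved differed at no gene by limma (0% of all genes called higher and 0% lower), and no member had an unadjusted p under 0.05, with a mitochondrial median of -0.16. SLNCR1 against the conserved region had a mitochondrial median of 0.15 and none passed, where 2.06% of genes were called higher and 9.47% lower. The comparisons with vector share the vector libraries, and those between constructs share libraries with them.

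The nuclear members also stood higher with SLNCR1 and delta-conserved, by less than the mitochondrially encoded ones with delta-conserved. By limma 21 of 77 rose with SLNCR1 and none fell, with a median log2 difference of 0.23, where 3.94% of all genes tested were called higher and 7.41% lower. With delta-conserved 25 of 77 rose and none fell, with a median of 0.22, where 5.19% were called higher and 5.26% lower. With the conserved region none passed, with a median of 0.09 (2 had an unadjusted p under 0.05). In that comparison 0.00623% of all genes tested were called higher and 0% lower. Between constructs no nuclear member passed, with medians of 0.00 for SLNCR1 against delta-conserved, -0.14 with the conserved region set against delta-conserved (21 had an unadjusted p under 0.05) and 0.14 for SLNCR1 against the conserved region. Over all genes tested, 0%, 5.79% and 2.06% were called higher in these comparisons, in the same order, and 0%, 1.11% and 9.47% lower. In the last of them, 22 nuclear members and no mitochondrially encoded one had an unadjusted p under 0.05. The share of all genes under that unadjusted cutoff was not counted, so these unadjusted counts are only a description. Both libraries were above both vector libraries for 71 members with SLNCR1, 66 with delta-conserved and 32 with the conserved region, as for 27.2%, 27.7% and 25.1% of all genes tested. Both were below for 2, 4 and 3 members, as for 25.4%, 26.0% and 16.7% of all genes tested. The summed nuclear reads spread more than the mitochondrial ones, at 48998 and 48879 with SLNCR1, 45620 and 41991 with delta-conserved, 51205 and 48377 with the conserved region, against 52902 and 51225 with vector.

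**Figure D3:**
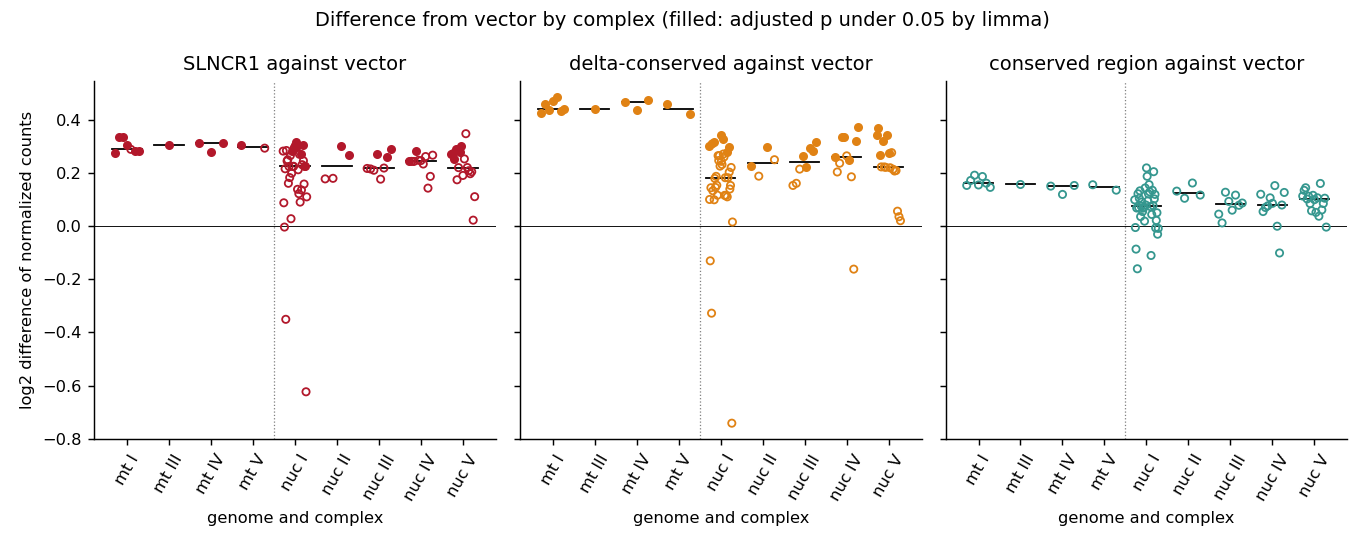
Log2 difference of normalized counts from vector for each member, by genome and complex, with SLNCR1 (left), delta-conserved (middle) and the conserved region (right); filled points passed an adjusted p of 0.05 by limma and lines are medians. Mitochondrial medians of 0.30, 0.44 and 0.16 stand beside nuclear medians of 0.23, 0.22 and 0.09, and NDUFV2 and NDUFA13 lie lowest with SLNCR1 and delta-conserved. NDUFV2 stood just above the vector level required of members, a selection that favours lower values with the constructs.

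Complex I takes electrons from NADH and has 37 nuclear members here, of which 8 rose with SLNCR1 (median log2 0.23) and 6 with delta-conserved (median 0.18), beside 3.94% and 5.19% of all genes tested. NDUFV1, which binds the NADH and has the highest mean over the 8 libraries among them, had 1831 and 1926 normalized counts with SLNCR1, 1833 and 1912 with delta-conserved, 1649 and 1678 with the conserved region, against 1520 and 1697 with vector. The SLNCR1 libraries were above both vector libraries, and the difference was 0.23 ± 0.07 (SE, limma adjusted p = 0.0455). The accessory subunits NDUFB4, NDUFB7 and NDUFS5 rose with both constructs, while NDUFB5, NDUFB6, NDUFB10 and NDUFV1 passed with SLNCR1 and NDUFA1 and NDUFA4 with delta-conserved. NDUFA4 is counted here by its name and is now held to be a subunit of complex IV. With the conserved region NDUFB4, NDUFS4 and NDUFB5 stood at 0.22, 0.21 and 0.19 and NDUFC2 at -0.11, none passing. Between constructs NDUFC2 and NDUFB3 stood at 0.38 and 0.22 for SLNCR1 over the conserved region. For the conserved region over delta-conserved NDUFC2 and NDUFB11 stood at -0.29 and -0.23. NDUFB8, NDUFA9 and NDUFA11 stood at -0.13, -0.13 and 0.13 for SLNCR1 over delta-conserved, and none of these passed.

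A few complex I subunits went the other way without passing. NDUFV2, an iron-sulphur subunit beside NDUFV1, had 33 and 29 reads with SLNCR1, 22 and 29 with delta-conserved, 66 and 42 with the conserved region, against 64 and 56 with vector. Its log2 difference was -0.62 ± 0.25 with SLNCR1 and -0.74 ± 0.25 with delta-conserved (SE, limma adjusted p = 0.109 and 0.0676), and both groups lay below vector. NDUFV2 became a member through a vector level of 53.37, just above the threshold of 50. Selection on vector counts favours genes that are higher there, so its direction against vector carries that bias. Between constructs, in differences that use no vector counts, NDUFV2 stood at 0.71 for the conserved region over delta-conserved. It stood at -0.59 for SLNCR1 over the conserved region, and neither difference passed. NDUFA13, also described as the cell death regulator GRIM-19, had 70 and 77 reads with SLNCR1, 71 and 62 with delta-conserved, 114 and 77 with the conserved region, against 108 and 126 with vector. Its differences of -0.35 ± 0.18, -0.33 ± 0.18 and -0.16 ± 0.18 did not pass (limma adjusted p = 0.223, 0.306 and 0.887). Both were among the 4 members with the fewest reads per base of transcript, at 0.0458 and 0.107, and in GENCODE 28.4% and 21.0% of their exonic bases are shared with other genes, whose reads could be counted for either or for none.

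Complex II oxidises succinate and links the tricarboxylic acid cycle to the chain. Its flavoprotein SDHA had 1407 and 1511 normalized counts with SLNCR1, 1505 and 1509 with delta-conserved, 1377 and 1449 with the conserved region, against 1251 and 1329 with vector. It rose with delta-conserved by 0.23 ± 0.07 (SE, limma adjusted p = 0.0419), and stood at 0.18 with SLNCR1 without passing. The anchor SDHC rose by 0.30 with both SLNCR1 and delta-conserved (limma adjusted p = 0.0215 and 0.0217). SDHD, whose promoter is shown above, rose by 0.27 with SLNCR1 and stood at 0.25 with delta-conserved (limma adjusted p = 0.0461 and 0.0656). The iron-sulphur subunit SDHB did not pass with either.

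In complex III, which passes electrons from quinol to cytochrome c, 3 of 8 nuclear members rose with SLNCR1 and 5 with delta-conserved, beside 3.94% and 5.19% of all genes tested. UQCRC1, a core protein, had 1825 and 1993 normalized counts with SLNCR1, 1861 and 1939 with delta-conserved, 1633 and 1743 with the conserved region, against 1531 and 1633 with vector. It rose by 0.27 ± 0.07 with SLNCR1 and by 0.26 ± 0.07 with delta-conserved (SE, limma adjusted p = 0.0227 and 0.0226), and was 1 of 4 nuclear members that rose in the authors' deposited table for delta-conserved, with a log2 fold change of 0.26 and an adjusted p of 0.0434. UQCRH and UQCRQ rose with both constructs, while the second core protein UQCRC2 and the Rieske iron-sulphur protein UQCRFS1 passed with delta-conserved. UQCRB stood at 0.13 with the conserved region, UQCR11 at 0.20 for SLNCR1 over the conserved region and UQCR10 at 0.06 for SLNCR1 over delta-conserved, none passing.

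In complex IV, cytochrome c oxidase, 2 of 11 nuclear members rose with SLNCR1 and 6 with delta-conserved, beside 3.94% and 5.19% of all genes tested. COX7A2L, which helps join complexes into supercomplexes and has the highest mean of the 11, had 780 and 841 normalized counts with SLNCR1, 803 and 834 with delta-conserved, 750.2 and 781 with the conserved region, against 659 and 718 with vector. It passed with delta-conserved at 0.25 (limma adjusted p = 0.0395). COX4I1, another nuclear subunit of this complex, is not matched by the naming rule and so is no member. It had 1057 to 1358 normalized counts over the 8 libraries, more than COX7A2L. It stood at 0.20 with SLNCR1 and 0.25 with delta-conserved without passing (limma adjusted p = 0.1002 and 0.0502). COX6B1, a subunit on the intermembrane side, had 530 and 617 normalized counts with SLNCR1, 577 and 609 with delta-conserved, 474 and 516 with the conserved region, against 447 and 492 with vector. It rose by 0.28 ± 0.09 with SLNCR1 and by 0.34 ± 0.09 with delta-conserved (SE, limma adjusted p = 0.0482 and 0.0228), and COX5A rose with both as well. COX8A had the largest nuclear rise with delta-conserved, 0.37 ± 0.10 (limma adjusted p = 0.0228), and its reads varied least among nuclear members, from 324 to 363. COX6C and COX7C also rose with delta-conserved, by 0.34 and 0.32 (limma adjusted p = 0.033 and 0.0185), and stood at 0.25 and 0.19 with SLNCR1 without passing. COX7B and COX5B stood at 0.26 and 0.19 for SLNCR1 over the conserved region without passing. COX7B2, a paralogue of COX7B, had 37 to 67 reads and did not pass in any comparison with vector. It stood at 0.305 for SLNCR1 over delta-conserved, also without passing.

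In complex V, the ATP synthase, 6 of 17 nuclear members rose with SLNCR1 and 6 with delta-conserved, beside 3.94% and 5.19% of all genes tested. The catalytic beta subunit ATP5B had 2882 and 3093 normalized counts with SLNCR1, 3077 and 3293 with delta-conserved, 2587 and 2832 with the conserved region, against 2332 and 2605 with vector. It rose by 0.28 ± 0.08 with SLNCR1 and by 0.37 ± 0.08 with delta-conserved (SE, limma adjusted p = 0.0288 and 0.00558). The alpha subunit ATP5A1 rose by 0.27 and 0.34 (limma adjusted p = 0.0237 and 0.00641), and ATP5G2, a gene for the membrane ring, by 0.30 and 0.34 (adjusted p = 0.02 and 0.00854). These 3 also rose in the authors' deposited table for delta-conserved, with fold changes of 1.26 for ATP5A1, 1.29 for ATP5B and 1.27 for ATP5G2 and adjusted p-values of 0.00108, 0.00631 and 0.0204. ATP5D and ATP5G1 rose with SLNCR1, by 0.29 and 0.28, ATP5E and ATP5G3 with delta-conserved, by 0.32 and 0.27, and ATP5C1 with both, by 0.25 and 0.27. ATP5I, with 61.6% of its exonic bases shared with another gene, stood at 0.35 with SLNCR1 without passing (limma adjusted p = 0.102). For SLNCR1 over the conserved region ATP5I and ATP5H stood at 0.24 and 0.20. ATP5J2 stood at 0.16 with the conserved region and ATP5O at 0.15 for SLNCR1 over delta-conserved, and none of these passed. ATP5S and ATP5SL, which are taken in by name and are not subunits of the enzyme, differed from vector by 0.04 and 0.02 with delta-conserved.

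Fits with a library left out leave a group with a single library, so only effect sizes are given for them. With SLNCR1 against vector the median log2 difference then ran from 0.24 to 0.38 for mitochondrially encoded members and from 0.16 to 0.32 for nuclear ones. The limma count of 32 members with SLNCR1 was 0 in fits without a variance trend, without a filter on low genes or with scaling by read density. How many of all genes those fits called was not counted. With delta-conserved against vector and a library left out, the mitochondrial median ran from 0.37 to 0.53 and the nuclear median from 0.19 to 0.27. For the conserved region against delta-conserved these medians ran from -0.38 to -0.21 and from -0.18 to -0.095. For SLNCR1 against the conserved region they ran from 0.07 to 0.23 and from 0.07 to 0.21.

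The number of reads that genes kept in shallow libraries moved with their read density. Reads in delta-conserved b, the shallowest library, were 97.1% of those in vector a, the deepest, at the median of the mitochondrially encoded members (92.9% to 99.5%). The nuclear members had a median of 78.2% (45.3% to 90.6%), and all genes with a mean of at least 50 reads 64.9%, where the totals stood at 68.4%. Mean reads per base of transcript, with lengths for all 90 members from GENCODE release 29, were 0.792 to 1.76 for the mitochondrially encoded members, with a median of 1.37, and 0.0375 to 1.58 for the nuclear ones, with a median of 0.682, beside a median of 0.222 over all genes. MT-ND4 was the densest mitochondrial member and NDUFS8, an iron-sulphur subunit of complex I, the densest nuclear one.

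Over all genes the median share kept was 58.3% for the 680 genes at or below 0.03 reads per base, and 80.1% for the 709 genes above 1.0. In the densest class the 16 nuclear members had a median of 82.4% and the 10 mitochondrially encoded members 96.7%. The median log2 difference from vector in normalized counts also moved with density over all genes, at -0.15 in the least dense class and 0.21 in the densest with SLNCR1, -0.10 and 0.24 with delta-conserved, and -0.04 and 0.09 with the conserved region. Nuclear members in the densest class had medians of 0.27, 0.27 and 0.10. When each library was scaled along read density, an alternative chosen after seeing the data, the mitochondrial medians were 0.10, 0.21 and 0.07 and the nuclear medians 0.11, 0.09 and 0.03, with 0, 9 and 0 members called. The part of read density in these differences was not tested further.

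**Figure D4:**
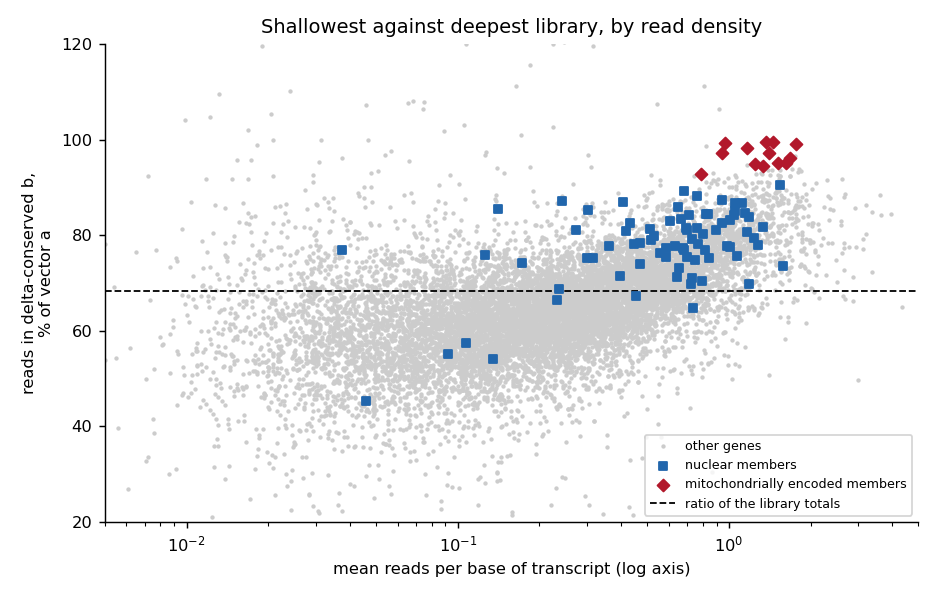
Reads in delta-conserved library b as a percent of those in vector library a, against mean reads per base of transcript (log axis), for mitochondrially encoded members (diamonds), nuclear members (squares) and other genes with a mean of at least 50 reads (grey), of which 31 lie outside the axes; the dashed line is the ratio of the library totals, 68.4%. Mitochondrially encoded members lie between 92.9% and 99.5%, above every nuclear member (45.3% to 90.6%).

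The other lists of mitochondrial genes were chosen with earlier results of these data known, and counts are by limma with SLNCR1 first and delta-conserved second, beside 3.94% and 5.19% of all genes tested called higher. Of 46 assembly factors of the complexes, 2 rose with SLNCR1, the ATP synthase factor TMEM70 (0.31) and the complex I factor NDUFAF3 (0.31), and 0 with delta-conserved, with medians of 0.10 and 0.03. Of 18 tricarboxylic acid cycle genes, IDH3B rose with SLNCR1 (0.24) and the malate dehydrogenase gene MDH2 with delta-conserved (0.30). Of 74 mitochondrial ribosomal protein genes tested, 8 rose with SLNCR1 and 5 with delta-conserved, with medians of 0.16 and 0.13, among them MRPL51 in both (0.27 and 0.30), MRPL14, MRPS26 and MRPL34 with SLNCR1 (0.33, 0.30 and 0.26) and MRPS34, MRPS23 and MRPL3 with delta-conserved (0.27, 0.26 and 0.25). The counts of assembly factors and cycle genes, and that of ribosomal protein genes with delta-conserved, were near the share over all genes. Of 21 import genes tested, 2 and 4 rose, TOMM20 by 0.26 and 0.29 and TOMM22 by 0.24 and 0.26 with both, TOMM7 and HSPA9 by 0.37 and 0.22 with delta-conserved, while TIMM44, of the inner membrane import motor, fell with delta-conserved (-0.22, limma adjusted p = 0.0378). With the conserved region against vector none of these lists had a member that passed, where 0.00623% of all genes were called higher and 0% lower. Set against delta-conserved, the conserved region had TOMM7 lower (-0.31) and TIMM44 higher (0.27).

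CYCS, the gene of cytochrome c, which carries electrons from complex III to complex IV, had 837 and 951 normalized counts with SLNCR1, 878 and 922 with delta-conserved, 761 and 799 with the conserved region, against 734 and 740 with vector. It rose by 0.27 and 0.29 with SLNCR1 and delta-conserved (limma adjusted p = 0.0297 and 0.0223), and CYC1, the cytochrome of complex III, by 0.24 and 0.25. Of 28 genes tested for mitochondrial DNA maintenance and expression 0 rose with either construct, and 1, MTERFD2, of the mitochondrial transcription termination factor family, fell with delta-conserved (-0.28 ± 0.08 SE, limma adjusted p = 0.0428). Over all genes tested, 3.94% and 5.19% were called higher with SLNCR1 and delta-conserved, and 7.41% and 5.26% lower. The counts of 0 and 1 were near those shares. TFAM, which packages and transcribes mitochondrial DNA, stood at 0.04, 0.13 and 0.15 with SLNCR1, delta-conserved and the conserved region, and the mitochondrial RNA polymerase gene POLRMT at 0.18, 0.10 and -0.04, and neither passed. PNPT1, a mitochondrial RNA-degrading enzyme, was higher with the conserved region than with delta-conserved (0.31) and lower with SLNCR1 than with the conserved region (-0.30).

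Of 12 regulators of mitochondrial biogenesis the 1 that passed against vector was PPARGC1A, the coactivator PGC-1alpha, which fell. Over all genes tested, 7.41% were called lower with SLNCR1 and 5.26% with delta-conserved, so a count of 1 was near those shares. PPARGC1A had 45.0 and 26.3 normalized counts with SLNCR1, 57.5 and 55.2 with delta-conserved, 105.3 and 119.2 with the conserved region, against 135 and 111 with vector. Both SLNCR1 and delta-conserved lay below the other libraries, by -1.80 ± 0.22 and -1.11 ± 0.22 against vector (SE, limma adjusted p = 4.02e-05 and 0.00421), while the conserved region stood at -0.13 (adjusted p = 0.934). NRF1 stood at -0.02, -0.13 and -0.03, GABPA at -0.01, -0.01 and 0.03, and ESRRA, a nuclear receptor that PPARGC1A works with, at 0.22, 0.11 and -0.03, none of which passed. Between constructs PPARGC1A was lower with SLNCR1 than with the conserved region (-1.67) and higher with the conserved region than with delta-conserved (0.98). With SLNCR1 over the conserved region ESRRA was higher (0.25, limma adjusted p = 0.0419) and NFE2L2, a regulator of the oxidative stress response, lower (-0.22, adjusted p = 0.048).

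The genes whose normalized counts followed the mitochondrially encoded members most closely over the 8 libraries were not mitochondrial. Out of 16045 other genes, Pearson correlations of log2 values with the mean of the 13 were 0.999 for YBX1, EEF2 and PABPC1 and 0.998 for HSP90AB1 and HSPA8, which encode abundant RNA-binding, translation and chaperone proteins. The libraries share their size factors and depth, so this is a description. These 5 had 1.31 to 1.90 reads per base, beside 0.792 to 1.76 for the mitochondrially encoded members. The nuclear members had a median correlation of 0.89 (-0.76 to 0.99, 73 of 77 above 0), beside a median of -0.03 over all genes.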

How the data were processed

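Poly(A)-selected RNA of 8 A375 libraries was sequenced from kits that do not mark strand, per the labels' protocols. STAR, featureCounts, DESeq and the build hg19 are named in the submitters' processing notes, and their versions, settings and annotation are not stated in the sources used. The authors deposited 3 tables, each scaled on its own, with per gene a signal for each group (the mean of reads divided by size factors), the ratio of the construct and vector means as a fold change, and p-values raw and adjusted, per the file headers.

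Whole reads per library were recovered from these group means by finding the whole numbers that give them. Where several pairs of whole numbers fitted a gene, pairs far from the read ratio of the group's libraries were first set aside. Only 1 pair then remained for every gene with reads in 3 groups, and for 99.98% of genes in the conserved region. There 6 of 30986 genes, none a member, had several pairs. Totals were 8222868 to 12015394 reads. Reads were divided by median-of-ratios size factors and tested as log2(value + 1), so fold changes are on that scale and understated for low genes, with limma 3.58.1 in R 4.3.3 (variance trend, 1 fit of all libraries, mean of at least 10, Benjamini-Hochberg over 16058 genes). In a simulation of SLNCR1 against vector on 16058 genes, 76.3% of genes changed 1.5-fold were recovered, and 9 of all 195 calls were false. It gave all genes 1 fixed dispersion, unlike these data. A 1.5-fold change is also larger than any rise reported for members, so the power for those is not known. Python 3.11.15 was used otherwise.

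The members and lists were chosen with earlier results of these data known. Genes named are all mitochondrially encoded members, the 2 most abundant nuclear members of each complex, up to 4 with the largest differences per complex and comparison, members passing in the authors' tables, those nearest the level threshold, up to 4 passing genes of each other list, LINC00511, chosen regulators and the 5 genes most alike; others that passed are named to complete a count. The values of 1 nuclear member are not reported here. Alternatives were TMM or total scaling, other filters and pseudocounts, no trend, 2 groups alone and each library left out, and, chosen after seeing the data, no scaling and scaling by read density.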

Additional observations from a re-analysis of the deposited data

How the results depend on the processing

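Counts of members past an adjusted p of 0.05 by limma moved with the processing. With SLNCR1 against vector the count of 32 was 36 with a mean of at least 50, 15 with TMM, 20 with library totals and 5 with only the 2 groups fitted. It was 0 with no filter on low genes, with no variance trend or with scaling by read density. With delta-conserved against vector the count of 38 was 50 with only the 2 groups fitted (1 of these lower) and 42 with a mean of at least 50. It was 19 with TMM, 19 with library totals, 15 with no filter, 0 with no trend and 9 with scaling by read density. With the conserved region against delta-conserved the count of 10 was 33 with the 2 groups alone and 0 with no filter, no trend or scaling by read density. Leaving out each library in turn gave 0 to 67 with SLNCR1 against vector, 0 to 57 with delta-conserved against vector, 0 to 22 with the conserved region against delta-conserved and 0 to 27 with SLNCR1 against the conserved region. The conserved region against vector and SLNCR1 against delta-conserved had 0 under every alternative that kept all libraries of the groups compared. The spread of the mitochondrial share over libraries, 41.6%, was 16.2% as a share of member reads and 40.3% with mitochondrial rRNA and tRNA. The share of all genes called under these alternatives was not counted, so a change in calls over all genes cannot be told from one in the members. The cause of these moves was not tested.

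No scaling, chosen after seeing the data, changed signs, since it leaves the depth of each library in the values. It gave 2 members, both lower, with SLNCR1 against vector, 25, all lower and nuclear, with delta-conserved against vector, and 3, all higher, with the conserved region against delta-conserved. The log2 differences listed next are only those of chosen genes that passed with scaling and changed sign, and none of these passed unscaled. Other mitochondrially encoded members kept their sign, with the highest unscaled difference at 0.0222 with SLNCR1 and 0.0035 with delta-conserved. Log2 differences with SLNCR1 were then -0.0087 for MT-ATP6, -0.0012 for MT-CO1, -0.033 for MT-CO2, -0.0057 for MT-CYB, -0.0359 for MT-ND1, -0.0059 for MT-ND4, -0.0285 for MT-ND5, -0.0312 for MT-ND6, -0.04 for ATP5A1, -0.0367 for ATP5B, -0.012 for ATP5G2, -0.0431 for UQCRC1 and -0.0381 for CYCS. With delta-conserved they were -0.023 for MT-ATP6, -0.0575 for MT-ATP8, -0.0157 for MT-CO1, -0.0466 for MT-CO2, -0.0082 for MT-CO3, -0.0433 for MT-CYB, -0.056 for MT-ND1, -0.0216 for MT-ND2, -0.0437 for MT-ND3, -0.0104 for MT-ND4, -0.0485 for MT-ND5, -0.0405 for MT-ND6, -0.1405 for ATP5A1, -0.1138 for ATP5B, -0.1375 for ATP5G2, -0.1091 for COX8A, -0.2183 for UQCRC1 and -0.1951 for CYCS. No paired analysis was possible because the recovered libraries carry no replicate numbers.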
